A study of Mus musculus with 2 samples.

Results

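Cycling natural killer (NK) cells are NK cells that were replicating their DNA or dividing when they were captured from the tumour. They were picked from single-cell 5' RNA libraries (10x Chromium) of MC38 tumours, in which each transcript is counted once by a unique molecular identifier (UMI). A cell was kept as an NK cell when it held at least 2 UMIs of Ncr1 and Klrb1c together, at most 1 UMI of the Cd3 genes, 0 UMIs of Cd8b1 and Cd79a and at most 2 UMIs of Lyz2. It was called cycling when Mki67, Top2a, Birc5 and Cdk1 summed to at least 4 UMIs and non-cycling when they summed to 3 or fewer. This gave 78 cycling NK cells, 14 from the DFMO library and 64 from the water library, out of 452 NK cells of the gate (160 and 292) and 10720 deposited cells (4472 and 6248). The 4 genes of the rule, and with them the difference between cycling and non-cycling cells, chose the members, so those values are given as a description.

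NK cells are innate lymphocytes that kill target cells with perforin and granzymes and release chemokines and interferon gamma. They divide after cytokine signals such as IL-15. In dividing cells, genes of DNA synthesis, which are E2F targets, peak at G1/S and in S phase, and genes of chromosome segregation, which are served by the B-MYB, MuvB and FOXM1 complexes, peak in G2 and mitosis. Mki67, Top2a, Birc5 and Cdk1 belong mainly to the G2 and mitosis wave, so cells in G1 or early S phase can lie under the limit. DFMO (difluoromethylornithine) inhibits ornithine decarboxylase, the product of Odc1 and the first enzyme of polyamine synthesis, and polyamines are needed for growth.

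Both groups were C57BL/6 mice implanted with 200000 cells of MC38, a mouse colon carcinoma line. Mice of the DFMO group were given DFMO by gavage for 14 days from day 7, and mice of the water group were given water in the same way. The design text gives the gavage as daily and the treatment protocol as 2 times a day, and neither age nor sex stands in the labels. Tumour cells were dissociated and put through a Ficoll step to obtain immune cells, and cells of 4 mice were pooled into 1 library per group.

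Since each group is 1 library, no difference between DFMO and water could be tested, and cells of a library share their source. All intervals below are exact 95% intervals that cover counting error only. The DFMO library held 23588037 UMIs and a median of 2232 UMIs per cell, and the water library 59748244 and 6475. The gap was smaller among the cells described here. DFMO cycling NK cells had a median of 11296 UMIs (7810 to 20456) and water cycling NK cells 10110 (1904 to 29052), and the non-cycling NK cells had 4188 and 3751.5. Summed, the cycling cells held 169277 UMIs in DFMO and 657503 in water, and the non-cycling cells 723740 and 1045007. In all, 37 cell barcodes occurred in both libraries, and 1 cycling NK cell carried one of them, with a partner that was not a cycling NK cell.

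The cells carried the genes of their label. Ncr1, the activating receptor NKp46, was seen in 14 of 14 DFMO and 62 of 64 water cells, and Klrb1c, the receptor NK1.1, in 13 and 61, as the gate requires of one or the other. Several genes outside the gate were seen in all or most cells, but not every NK gene was. Gzma had 0 UMIs in some members of both libraries, among them a DFMO cell with 10174 UMIs and a water cell with 23220 UMIs. Nkg7, a granule protein, Fcer1g and Tyrobp, the adaptors of activating receptors, and Il2rb, the IL-2 and IL-15 receptor beta chain, were each seen in all 14 and all 64 cells, and Eomes, a transcription factor of conventional NK cells, in 12 and 46. Markers of group 1 innate lymphoid cells other than NK cells gave 29 and 120 UMIs over 5 and 27 of the cells. Of these, 1 DFMO cell held 23 UMIs and 1 water cell held 27. The B cell markers gave 1 and 1 UMI.

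The macrophage and monocyte markers gave 2 UMIs in DFMO and 11 in water, and the neutrophil markers gave 0 and 0. Of the T cell markers, 58 UMIs were counted in DFMO and 102 in water, none of them Cd8a, most of them the receptor constant regions Trbc1 (25 and 47) and Trbc2 (24 and 20). Levels are given as CPM, the UMIs of a gene over all UMIs of the summed cells, scaled to 1000000. The ratio of DFMO over water was 1.05 on the log2 scale for Trbc1 (0.29 to 1.78) and 2.22 for Trbc2 (1.30 to 3.15). The part of T cells in the results below was not tested, and a gate on 0 Cd3 UMIs is among the alternatives.

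In the water library, 6 of the 64 cycling NK cells, and 0 of the 14 in DFMO, carried at least 5 UMIs over Col3a1, Cd34, Serpinh1 and Sparc. Their sums were 177, 60, 37, 28, 21 and 14 UMIs, and the next cell had 1. These 4 genes were high in cells without Ptprc (CD45) UMIs, where the Col3a1 level was 2276 CPM (DFMO) and 3033 CPM (water). Scrublet, a doublet caller, marked 3 of the 6 cells as doublets. Among non-cycling cells, 0 of 146 in DFMO and 5 of 228 in water met the same limit, with a highest sum of 485 UMIs. All these cells were kept, and results are also given without them where that matters.

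The limit of 4 UMIs separated a small group from a large one. In DFMO, 128 of the 160 NK cells had 0 UMIs of the 4 genes, 0 cells had 3 and 2 cells had 4. In water, 188 of the 292 had 0, 3 cells had 3 and 4 cells had 4. Cells just inside the limit were deeper in DFMO, with a median of 10657 UMIs against 3905 in water, and the 3 water cells just outside it had a median of 5191. Among the members the sum had a median of 20.5 UMIs (4 to 60) in DFMO and 18 (4 to 63) in water. Cyclin A2 (Ccna2), a cyclin of S and G2 phase that the rule does not use, was seen in 0 of the 6 cells with a sum of 4 and in all 4 and all 14 cells with a sum of 32 or more.

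**Figure D1:**
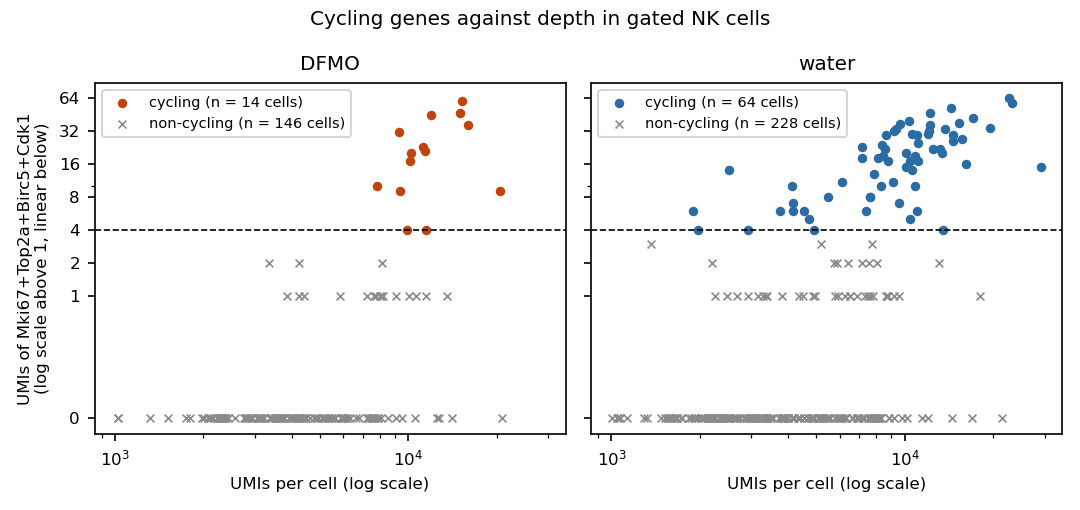
Each point is 1 NK cell of the gate, with its UMIs on the x axis (log scale) and the summed UMIs of Mki67, Top2a, Birc5 and Cdk1 on the y axis, DFMO left and water right. Filled points are the 14 and 64 cycling cells at or above the dashed limit of 4 UMIs, and crosses are the 146 and 228 non-cycling cells.

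Fewer of the NK cells were cycling in the DFMO library. Cycling cells were 14 of 160 NK cells in DFMO, or 8.75% (4.87 to 14.2, Clopper-Pearson), and 64 of 292 in water, or 21.9% (17.3 to 27.1), and the intervals did not overlap. Since a deeper cell reaches 4 UMIs more easily, each NK cell with at least 2000 UMIs was also thinned to 2000 UMIs, which left out 7 DFMO and 31 water cells. The share was then 5.23% in DFMO (8 of 153, 2.28 to 10.0) and 11.5% in water (30 of 261), and the exact intervals overlapped. Unthinned, the same cells gave 9.15% and 23.8%, and thinned with a limit of 2 UMIs they gave 7.19% (3.64 to 12.5) and 21.5% (16.6 to 26.9).

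The share was lower in DFMO in each of the 4 ranges of depth. Under 3000 UMIs it was 0 of 37 cells in DFMO, which allows a share of up to 8.11% by a floor of 3 cells and 9.49% by the exact interval, and 4 of 86 in water (4.65%). From 3000 to 6000 UMIs it was 0 of 69 in DFMO, which allows up to 4.35% by the floor and 5.21% by the exact interval, and 8 of 96 in water (8.33%). From 6000 to 12000 UMIs it was 22.2% (11.2 to 37.1) and 38.4% (28.1 to 49.5), and at 12000 or more it was 44.4% (4 of 9 cells, 13.7 to 78.8) and 79.2% (19 of 24 cells, 57.8 to 92.9). The exact intervals overlapped in all 4 ranges.

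T cells of the same libraries, gated on Cd3 UMIs, differed in the same direction, with 6.31% cycling by the same sum in DFMO (106 of 1681) and 16.3% in water (185 of 1135), or 5.19% and 12.6% after thinning. B cells, used as a gauge of free RNA and of cycling cells of another type, reached the limit in 1.86% in DFMO (28 of 1508, median 1776.5 UMIs) and 5.33% in water (4 of 75, median 1610 UMIs, 1.47 to 13.1). The shares of cycling NK cells over all depths lay above these, but the NK cells were deeper, with medians of 4347.5 UMIs in DFMO and 4679 in water. Under 3000 UMIs the NK shares, 0 of 37 cells in DFMO and 4.65% in water, were not above the B cell shares. Since the cells were enriched and pooled before capture, the shares describe the deposited NK cells. Of all deposited cells, cycling NK cells were 0.313% in DFMO (0.171 to 0.525) and 1.02% in water (0.790 to 1.31).

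**Figure D2:**
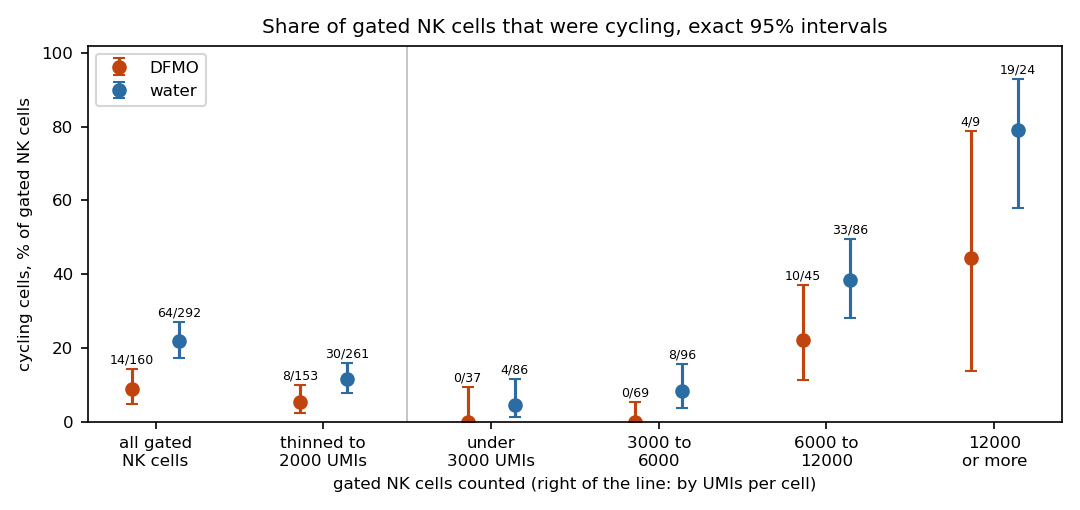
Share of NK cells of the gate that were cycling (y axis, %), in all NK cells, in cells thinned to 2000 UMIs and in 4 ranges of UMIs per cell, DFMO left of water in each pair. Bars are exact 95% intervals of counting error and the labels give cycling cells over NK cells; the DFMO point lies below the water point in all 6 pairs.

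The cycling cells of the DFMO library held relatively more transcripts of S phase genes. Over the published lists of 43 S phase and 54 G2/M genes, DFMO cells held 1236 S and 2573 G2/M UMIs and water cells held 3004 and 10340. The S share of these UMIs was 32.4% in DFMO (31.0 to 34.0) and 22.5% in water (21.8 to 23.2). Per cell, the S list took a median of 0.810% of the UMIs of a cell in DFMO (0.147 to 1.05) and 0.398% in water (0.0688 to 1.16). The G2/M list took 1.54% (0.419 to 3.58) and 1.58% (0.268 to 3.09). The groups of cells overlapped over nearly their whole range, and the difference lay in the S list, not in the G2/M list. The S list exceeded the G2/M list in 4 of 14 DFMO and 8 of 64 water cells. Taken as a mean over cells, so that no deep cell counts more, the S share was 37.1% in DFMO and 24.9% in water.

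In cycling T cells the S share was 24.0% in DFMO (23.5 to 24.6) and 26.0% in water (25.5 to 26.5), the opposite order. Most non-cycling NK cells gave little of either list, with a median of 0.0863% of UMIs for the S list in DFMO and 0.101% in water, and 0.172% and 0.167% for the G2/M list. The highest G2/M value of a non-cycling cell was 0.541% in DFMO and 2.42% in water. Both lie above the lowest value of a cycling cell, 0.419% in DFMO and 0.268% in water, so the ranges of cycling and non-cycling cells overlapped in each library.

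**Figure D3:**
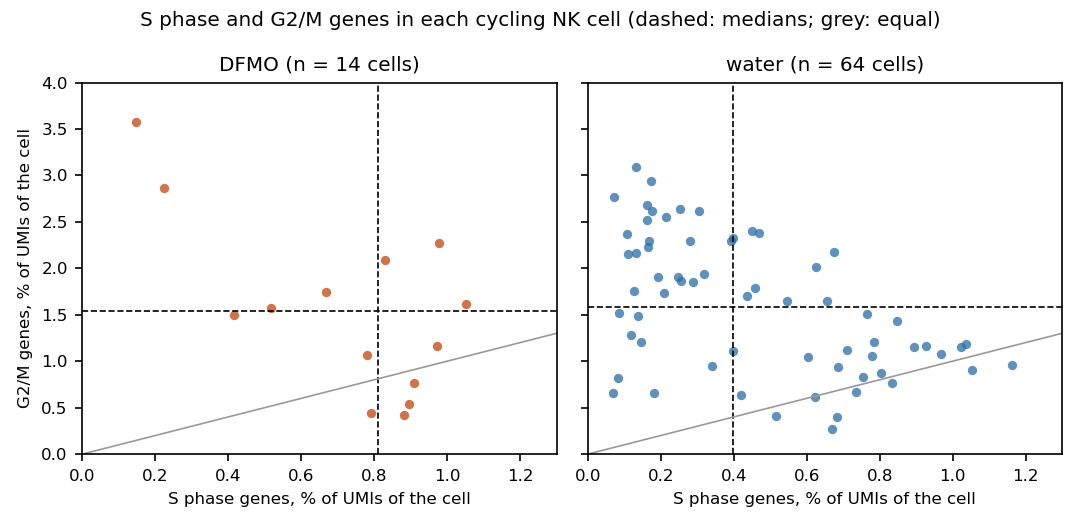
Each point is 1 cycling NK cell, with the share of its UMIs from S phase genes on the x axis (%) and from G2/M genes on the y axis (%), DFMO (14 cells) left and water (64 cells) right. Dashed lines are medians (S 0.810% and 0.398%, G2/M 1.54% and 1.58%) and the grey line marks equal shares.

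The promoters of 2 genes from each wave show the elements that the waves are known for. Stretches of 250 bases before the RefSeq start (GRCm38.p6, the mm10 build) are given 5′ to 3′ on the strand of the gene, for Top2a at chr11:99024190-99024439 and Cdk1 at chr10:69352913-69353162 of the rule, and for the replication helicase subunits Mcm5 at chr8:75109259-75109508 and Mcm6 at chr1:128359706-128359955. Mcm5 lies on the plus strand and the others lie on the minus strand. Capitals mark matches on either strand to an E2F site (TTTGGCGC, TTTCCCGC, TTTCGCGC or TTTGCCGC), to the cell cycle homology region CHR (TTTGAA) and to the CCAAT box (CCAAT).
Top2a: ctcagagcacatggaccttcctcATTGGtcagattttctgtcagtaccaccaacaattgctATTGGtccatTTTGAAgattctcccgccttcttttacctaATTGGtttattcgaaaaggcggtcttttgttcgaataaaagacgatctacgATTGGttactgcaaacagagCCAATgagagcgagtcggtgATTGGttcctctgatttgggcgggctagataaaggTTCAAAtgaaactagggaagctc
Cdk1: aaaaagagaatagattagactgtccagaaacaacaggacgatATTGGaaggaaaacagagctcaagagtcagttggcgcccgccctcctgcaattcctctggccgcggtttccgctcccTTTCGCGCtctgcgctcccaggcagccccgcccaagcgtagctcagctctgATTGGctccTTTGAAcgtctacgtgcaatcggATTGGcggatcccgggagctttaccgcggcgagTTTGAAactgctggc
Mcm5: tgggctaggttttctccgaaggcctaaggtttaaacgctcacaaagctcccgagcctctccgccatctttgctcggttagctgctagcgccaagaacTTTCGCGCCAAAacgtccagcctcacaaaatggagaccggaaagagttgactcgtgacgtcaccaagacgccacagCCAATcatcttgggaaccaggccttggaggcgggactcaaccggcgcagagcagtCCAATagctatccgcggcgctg
Mcm6: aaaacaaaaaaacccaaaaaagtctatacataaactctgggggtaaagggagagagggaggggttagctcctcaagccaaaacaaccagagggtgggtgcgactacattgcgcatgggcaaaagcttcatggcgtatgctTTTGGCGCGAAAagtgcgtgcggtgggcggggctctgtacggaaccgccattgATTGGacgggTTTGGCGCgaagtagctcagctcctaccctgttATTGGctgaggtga

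Top2a, a topoisomerase that untangles chromosomes, had 0 E2F, 2 CHR and 6 CCAAT matches, and Cdk1, the mitotic kinase, had 1, 2 and 3. Mcm5 had 2 E2F, 0 CHR and 2 CCAAT matches, and Mcm6 had 3, 0 and 2, where a pair of E2F matches on opposite strands overlapped in each. Over the whole lists, an E2F match stood in 25.8% of the 31 S phase promoters found in RefSeq and in 4.26% of the 47 G2/M promoters, against 1.91% of all 27025 promoters of the same length. A CHR match stood in 16.1% and 40.4%, against 16.3% of all, and a CCAAT match in 71.0% and 76.6%, against 34.5% of all. A match describes letters in this window and not a site in use.

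The next values set cycling against non-cycling NK cells within a library, the contrast that chose the members. Genes were measured when they averaged at least 50 CPM over the 2 sets compared, and a gene is called past 2-fold when its ratio exceeded 1 or was under -1 on the log2 scale. In DFMO, 344 of 3195 measured genes (10.8%) were higher in cycling cells past 2-fold and 173 (5.41%) were lower. In water, 192 of 3154 (6.09%) were higher and 52 (1.65%) were lower. With so few DFMO cycling cells the DFMO counts carry more counting error, so the counts of the libraries are not compared.

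The machinery of mitosis led, as the rule fixes. The median log2 ratio of cycling over non-cycling cells was 4.59 in DFMO and 4.54 in water for the G2/M list, and 4.60 and 3.97 for kinetochore and spindle checkpoint genes, with genes at 0 UMIs entered at their bound. Among cell cycle genes outside the rule, Ube2c, the ubiquitin-conjugating enzyme of the anaphase-promoting complex, stood at 6.75 (5.49 to 8.40) in DFMO and 5.78 (5.14 to 6.50) in water. Plk1, a mitotic kinase, stood at 7.00 (4.41 to 12.35) and 5.85 (4.27 to 8.15) over 1 and 3 non-cycling UMIs. Ccna2 had 66 UMIs in cycling and 0 in non-cycling DFMO cells, a ratio of at least 6.56 against a floor of 3 counts over the group, and stood at 6.09 (4.85 to 7.73) in water.

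Cenpf, a kinetochore protein, stood at 6.68 (4.75 to 9.77) and 8.20 (5.70 to 13.51), and Prc1, which bundles the midzone of the spindle, at 6.00 and 6.97. Cdca3, Nusap1 and Tpx2 had 0 UMIs in non-cycling DFMO cells, so their DFMO ratios were at least 6.53, 5.90 and 5.32, and their water ratios were 6.22, 6.63 and 5.72.

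The S phase list had a median of 2.53 in DFMO and 1.09 in water, and the replication origin and fork list 2.17 and 0.92. Rrm2, the regulated subunit of ribonucleotide reductase, was the highest of the measured S phase genes in both libraries, with 148 and 396 UMIs in cycling cells and 11 and 21 in non-cycling cells, a ratio of 5.85 (4.96 to 6.88) in DFMO and 4.91 (4.27 to 5.61) in water. Hist1h2ap was at 5.23 and 4.82, Hist1h2ae at 5.52 and 3.84, the linker histone gene Hist1h1b at 6.95 and 3.44, and Pclaf, a partner of PCNA, at 5.82 and 4.44. Ccdc34, Lockd, Hist1h2bj, Kpna2, Ube2t and Gm10282 completed the 10 highest outside the cell cycle lists, from 2.65 to 4.00 in DFMO and from 2.60 to 3.46 in water. Hist1h2a genes are near-identical copies, so their values are uncertain gene by gene.

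Genes of serine and one-carbon supply, which feed nucleotide synthesis, were also higher in cycling cells. The list driven by the stress factor ATF4 had a median of 0.91 in DFMO and 0.90 in water over 8 measured genes, among them Mthfd2 (1.86 and 1.28), a mitochondrial folate enzyme, and Psat1 (1.32 and 1.18), a serine synthesis enzyme. Without the 6 cycling and 5 non-cycling water cells with Col3a1, Cd34, Serpinh1 and Sparc, the water median was 0.33. Polyamine genes stood at 0.32 and 0.06, glycolysis at 0.18 and -0.06, and MHC class I presentation at -0.14 and -0.13.

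NK effector genes were lower in cycling cells of both libraries, relative to all UMIs. The cytotoxic granule list had a median log2 ratio of -0.75 in DFMO, with 6 of 16 measured genes lower past 2-fold, and -0.82 in water, with 7 of 17. The NK identity list stood at -0.62 (3 of 18 lower past 2-fold) and -0.65 (2 of 18). Among all measured genes, 5.41% in DFMO and 1.65% in water were lower past 2-fold. Gzma, granzyme A, had 4608 CPM in cycling and 9473 CPM in non-cycling DFMO cells, and 3910 and 8932 CPM in water. Prf1, perforin, stood at -0.64 (-0.88 to -0.39) and -1.21 (-1.37 to -1.04), and Irf8, a transcription factor of NK maturation, at -1.02 (-1.34 to -0.71) and -1.30 (-1.49 to -1.11).

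Ccl5, a chemokine of cytotoxic lymphocytes, was among the 10 lowest genes, with 1276 CPM in cycling and 7203 CPM in non-cycling DFMO cells and 678 and 5309 CPM in water. Its ratios were -2.50 (-2.70 to -2.30) and -2.97 (-3.11 to -2.83). Other genes lowest in both libraries were Serpinb9b (-3.15 and -2.87), a serpin gene, Hopx (-1.58 and -1.18), a homeodomain cofactor, Dusp2 (-1.40 and -1.28), a MAP kinase phosphatase, Ypel3 (-1.45 and -1.39) and the Ly49 receptor gene Klra9 (-1.36 and -1.34). Ly6c2, a surface antigen of mature lymphocytes and monocytes, had 0 and 55 UMIs in cycling cells and 196 and 262 in non-cycling cells. Its ratio was at most -3.93 in DFMO, against a floor of 3 counts, and -1.58 (-2.03 to -1.16) in water.

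The granzyme genes Gzmd, Gzme and Gzmg are near-identical neighbours and are uncertain one by one, and few cells carried them. Gzmg had 0 UMIs in the cycling cells of both libraries, and its 1194 UMIs in non-cycling DFMO cells came from 2 cells. Gzmd stood at -3.77 and -2.78, and Gzme at -3.96 and -2.35. In a gate with at least 3 UMIs of Ncr1 and Klrb1c and 0 Cd3 UMIs, Gzme was at 0.02 in DFMO.

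**Figure D4:**
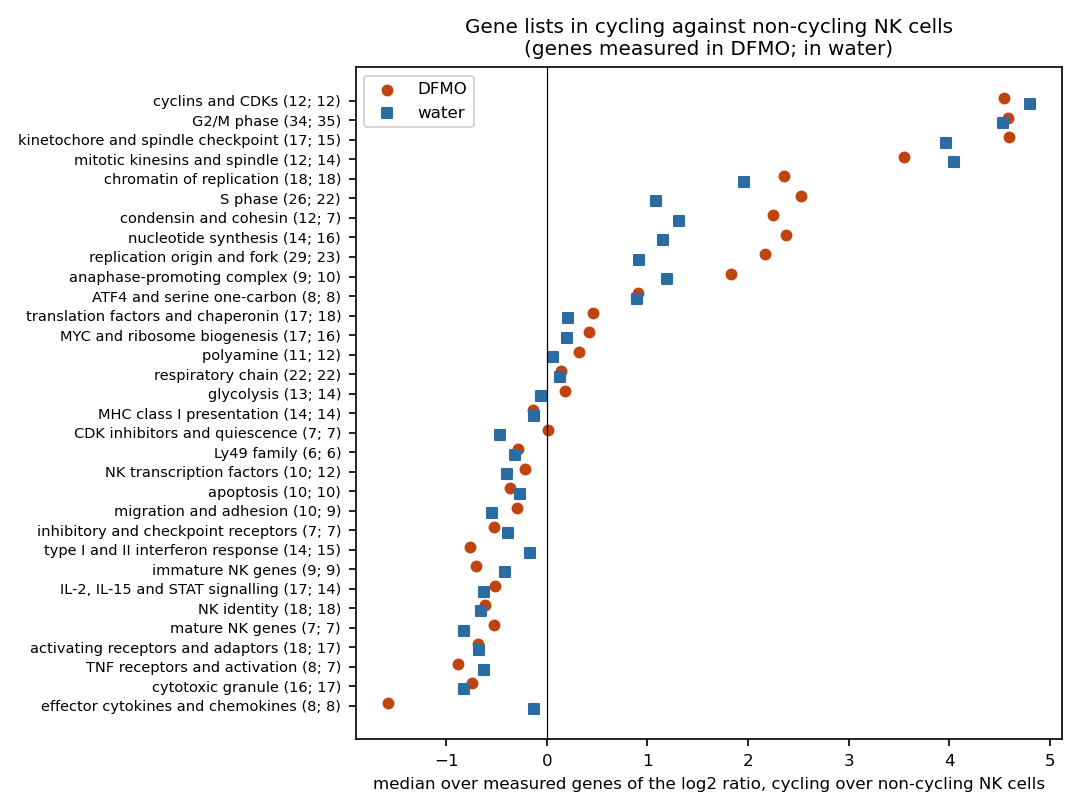
Median log2 ratio of CPM, cycling over non-cycling NK cells (x axis), for each gene list with at least 5 measured genes (y axis, with the number of genes in DFMO and in water), circles for DFMO and squares for water. The S phase, G2/M and kinetochore lists lie on the right, between 1.09 and 4.60. NK identity and cytotoxic granule genes lie left of 0 in both libraries.

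DFMO is now compared with water within cycling NK cells, a contrast that the rule for the members did not use. The members and the gene lists were still chosen with earlier results of these data known. Of 3251 measured genes, 125 (3.84%) were higher in DFMO past 2-fold and 93 (2.86%) were lower, and the median over all of them was 0.06. With TMM scaling the split was 89 higher and 121 lower. In non-cycling NK cells, where the sums were deeper, 14 of 3069 genes (0.456%) were higher past 2-fold and 29 (0.945%) were lower, with a median of 0.01. Without the 5 non-cycling water cells with Col3a1, Cd34, Serpinh1 and Sparc, 11 were higher and 11 were lower.

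Replication genes were higher in the DFMO cycling cells as a group. Of the S phase list, 26 of 28 measured genes lay above 0 and 2 below, with a median of 0.73, and 5 were past 2-fold higher and 0 lower. The 33 measured genes of replication origins and forks had the same median of 0.73, with 31 above 0, 7 past 2-fold higher and 0 lower. Among all measured genes, 3.84% were past 2-fold higher and 2.86% lower. The 2 lists share 18 genes, so they are not separate results. In non-cycling NK cells the 2 lists stood at -0.44 and -0.53, and in cycling T cells at 0.10 and 0.10.

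Mcm6, a subunit of the replicative helicase, had 63 UMIs in 13 of 14 DFMO cells and 122 UMIs in 41 of 64 water cells, or 372 and 186 CPM, with an interval of 0.54 to 1.45 for the log2 ratio. In non-cycling cells its ratio was -0.37 (-0.78 to 0.03). Pcna, the sliding clamp of DNA polymerases, had 77 UMIs in 12 cells and 172 UMIs in 45 cells, or 455 and 262 CPM, at 0.80 (0.39 to 1.19), and stood at -0.51 (-0.98 to -0.05) in non-cycling cells. All 6 genes of the MCM2-7 helicase were above 0, from 0.52 for Mcm3 to 1.02 for Mcm2.

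Of the other replication genes, Hells, a chromatin remodeller, had 183 CPM in DFMO and 74.5 CPM in water, at 1.30 (0.60 to 1.98). Cdt1, a licensing factor, stood at 1.20 (0.21 to 2.15). Chaf1b, a histone chaperone subunit, had 118 CPM in DFMO and 31.9 CPM in water, at 1.89 (0.93 to 2.84), and Pole2, a polymerase epsilon subunit, had 14 and 12 UMIs, at 2.18 (0.96 to 3.42). The lowest genes were Usp1 at -0.03, Rpa3 at -0.04 and Rpa2 at -0.01. The nucleotide synthesis list had a median of 0.33, with 11 of 15 genes above 0 and none past 2-fold. Rrm1, ribonucleotide reductase's large subunit, stood at 0.98 (0.50 to 1.46), and Rrm2 at 0.54 (0.26 to 0.81).

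Histone transcripts went the same way for some genes. Hist1h2ap had 395 UMIs in 10 of 14 DFMO cells and 408 UMIs in 44 of 64 water cells, or 2334 and 621 CPM, a ratio of 1.91 (1.71 to 2.11). Hist1h1d stood at 1.18 (0.71 to 1.63) and Hist1h2ae at 1.03 (0.69 to 1.35). H2afz, a replication-independent variant histone gene, was at -0.01 (-0.14 to 0.12). Histone transcripts are mostly not polyadenylated, and the labels name polyA RNA.

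The G2/M, kinetochore and cyclin lists had no common direction. Of 45 measured G2/M genes, 23 lay above 0 and 22 below, with a median of 0.01, and kinetochore and cyclin genes had medians of 0.00 and -0.03. Per cell, mitotic kinesin and spindle genes took a median of 1.30% of UMIs in DFMO and 0.995% in water. Their ranges, 0.365% to 2.26% and 0.163% to 1.91%, overlapped. Condensin and cohesin genes took 0.239% and 0.203%, kinetochore genes 0.401% and 0.466%, and anaphase-promoting complex genes 0.349% and 0.353%. Bub1, a checkpoint kinase, was past 2-fold higher at 1.20 (0.09 to 2.25) on 13 and 22 UMIs, and Ckap2l (-1.42), Pimreg (-1.17) and Kif20b (-1.15), genes of the spindle and of division, were past 2-fold lower on 8 to 11 DFMO UMIs. Cenpa, the centromeric histone, had 56 UMIs in 6 DFMO cells and 423 UMIs in 54 water cells, at -0.96 (-1.39 to -0.55). The 4 genes of the rule stood close to 0, with Mki67 at 0.33, Top2a at 0.28, Birc5 at -0.24 and Cdk1 at -0.36, each with an interval that included 0. Their sum chose the members in both libraries, so these 4 values are a description only.

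Interferon-stimulated genes were lower in the DFMO cycling cells. Of 14 measured genes of the interferon list, 9 were past 2-fold lower and 0 higher, and 11 lay below 0. Among all measured genes, 2.86% were past 2-fold lower and 3.84% higher. The median of the list was -1.45, or -1.17 without the 6 cells with Col3a1, Cd34, Serpinh1 and Sparc. Over the settings tried the median ranged from -1.17 to -1.55. The median was -0.37 in non-cycling NK cells and -0.38 in cycling T cells. In non-cycling NK cells 3 of 16 genes were past 2-fold lower and 1 higher, beside 0.945% and 0.456% of all measured genes. Per cell, the list took a median of 0.113% of UMIs in DFMO cycling cells (0.0458 to 0.718) and 0.216% in water cycling cells (0.0441 to 1.99), so the ranges overlapped.

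Isg15, a ubiquitin-like protein induced by type I interferon, had 9 UMIs in 5 of 14 DFMO cells and 439 UMIs in 47 of 64 water cells. This was 53.2 CPM in DFMO and 668 CPM in water, a ratio of -3.65 (-4.79 to -2.71), or -2.97 without the 6 cells. In non-cycling cells Isg15 had 348 CPM (DFMO) and 594 CPM (water), a ratio of -0.77 (-0.99 to -0.56). Irf7, the transcription factor that amplifies the type I response, had 4 UMIs in 4 cells and 106 UMIs in 39 cells, at -2.77 (-4.67 to -1.37), and -0.45 (-0.77 to -0.14) in non-cycling cells. Ifit1, an RNA-binding antiviral protein, had 2 and 58 UMIs, at -2.90 (-5.98 to -0.98).

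Bst2, tetherin, was lower in both sets, with 177 CPM in DFMO and 665 CPM in water in cycling cells, at -1.91 (-2.49 to -1.37), and at -1.37 (-1.61 to -1.14) in non-cycling cells. Ifitm3, a membrane protein that blocks virus entry, stood at -1.95 (-2.73 to -1.27), but 72.2% of its 18 DFMO UMIs came from 1 cell. Oas1a (-1.50), Ifitm2 (-1.48), Usp18 (-1.42) and Irgm1 (-1.26) were the others past 2-fold. Not every gene of the list was lower. Irf1, an early target of interferon gamma, had 236 CPM in DFMO and 152 CPM in water, at 0.64 (0.07 to 1.18). Ifi27l2a was at 0.26, with all 54 DFMO UMIs in 1 cell.

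Transcripts of secreted factors were lower in the DFMO cycling cells, with a median of -0.99 over 8 measured cytokine and chemokine genes. Of these 8 genes, 4 were past 2-fold lower and 0 higher, beside 2.86% and 3.84% of all measured genes. Without the 6 cells the median was -1.17. In non-cycling NK cells the list had a median of 0.35 over 8 measured genes with 0 past 2-fold, and in cycling T cells the list stood at -0.29. Per cell, the list took a median of 0.291% of UMIs in DFMO cycling cells (0.105 to 1.87) and 0.667% in water cycling cells (0.0861 to 4.64).

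Xcl1, the chemokine that draws cross-presenting dendritic cells, had 365 UMIs in 13 of 14 DFMO cells and 3218 UMIs in 61 of 64 water cells. Nearly all cells of both groups had the transcript. The level was 2156 CPM (DFMO) against 4894 CPM (water), a ratio of -1.18 (-1.34 to -1.03), against -0.42 (-0.49 to -0.35) in non-cycling cells. Ltb, lymphotoxin beta, stood at -1.47 (-2.11 to -0.88) in cycling and 0.05 (-0.16 to 0.26) in non-cycling cells.

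Ccl4, a chemokine induced on activation, had 15 UMIs in 3 DFMO cells and 581 UMIs in 24 water cells, or 88.6 and 884 CPM, at -3.32 (-4.16 to -2.58), and 39.6% of the water UMIs came from 1 cell. In non-cycling cells it stood at 0.46 (0.34 to 0.59). Ccl3, its neighbour, had 3 and 101 UMIs, at -3.12 (-5.42 to -1.53), and 0.87 (0.55 to 1.20) in non-cycling cells. Ifng, interferon gamma, was at -0.48 (-1.32 to 0.28) and Tnf at -0.79 (-1.72 to 0.03), intervals that included 0. Ccl5 was at 0.91 (0.67 to 1.15), with 64.8% of its DFMO UMIs in 1 cell.

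**Figure D5:**
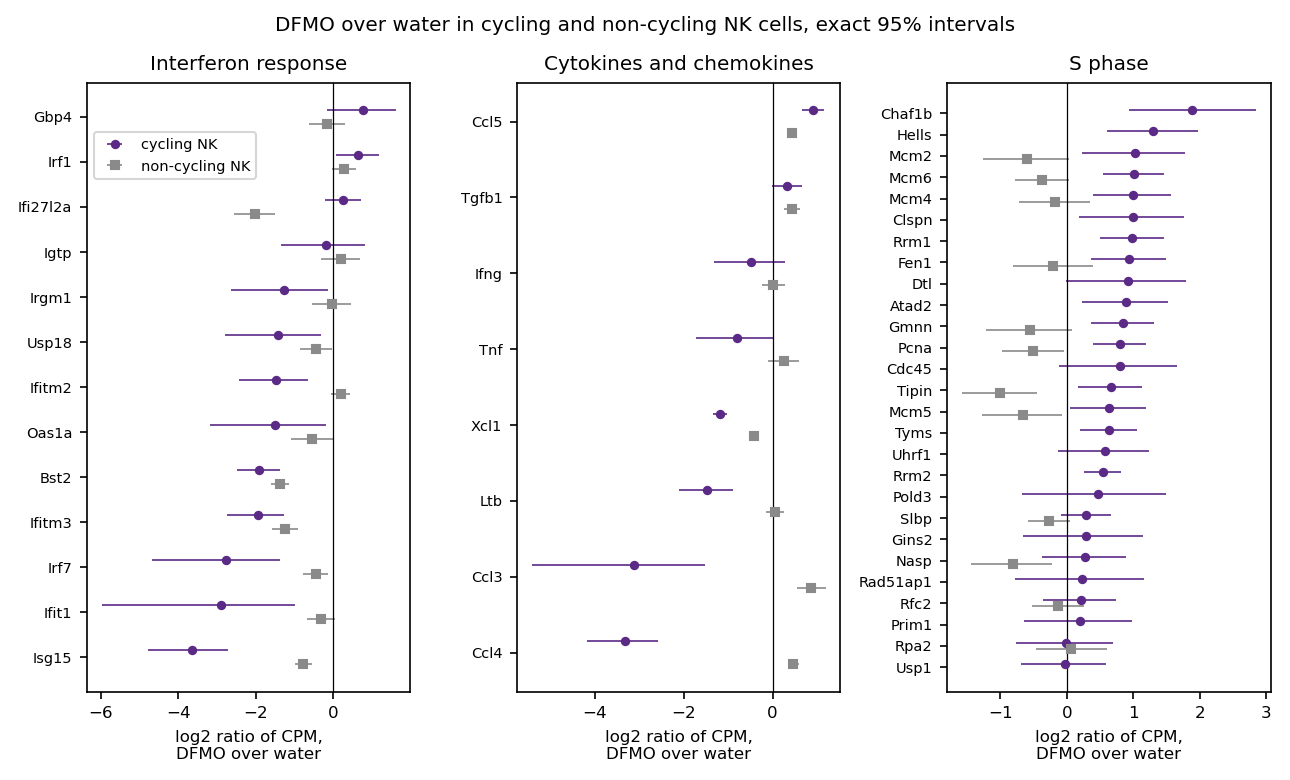
Log2 ratio of CPM, DFMO over water (x axis), for measured genes of the interferon (13 drawn), cytokine (8) and S phase (27) lists in cycling NK cells (circles) and non-cycling NK cells (squares, drawn where the gene was measured), with exact 95% intervals of counting error. In cycling cells 10 of the 13 interferon genes drawn lie left of 0 and 25 of the 27 S phase genes drawn lie right of 0.

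The cytotoxic granule list had a median of 0.00 in cycling cells, with 8 of 16 measured genes above 0 and 8 below. Gzma, Gzmb and Nkg7 stood at 0.24 (0.12 to 0.35), -0.02 (-0.15 to 0.11) and 0.03 (-0.14 to 0.18). Prf1 had 160 UMIs in 12 DFMO cells and 378 UMIs in 57 water cells, at 0.72 (0.44 to 0.99), and 0.15 (0.03 to 0.26) in non-cycling cells. Gzmc, a granzyme of strongly activated cells, had 1193 UMIs in 8 of 14 DFMO cells and 9683 UMIs in 49 of 64 water cells, at -1.06 (-1.15 to -0.98), and -0.07 (-0.10 to -0.03) in non-cycling cells. Gzmk was past 2-fold higher at 1.34 (0.21 to 2.42) on 13 and 20 UMIs, and Gzmf had 0 UMIs in DFMO and 76 UMIs in 3 water cells. Per cell, the list took a median of 1.78% of UMIs in DFMO cycling cells and 2.11% in water cycling cells.

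Receptor and maturation genes differed less. The NK identity list stood at 0.23 with 1 of 18 genes past 2-fold higher, beside 3.84% of all measured genes. That gene was Klrc2, an activating NKG2 receptor, at 1.22 (0.55 to 1.87). Genes of migration and adhesion had a median of 0.66 with 8 of 9 above 0 and none past 2-fold, led by Itgb2, the beta-2 integrin chain, at 0.89 (0.34 to 1.43), against 0.31 in non-cycling cells. Il2rb was at 0.60 (0.36 to 0.84). Klf2, a factor of quiescence and trafficking, had 11 UMIs in 3 DFMO cells and 120 UMIs in 29 water cells, at -1.49 (-2.53 to -0.60), and 0.18 (-0.04 to 0.41) in non-cycling cells.

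Lists of housekeeping metabolism stood near the median of all genes, with respiratory chain at 0.00, glycolysis at 0.00, MHC class I presentation at -0.05 and MYC and ribosome biogenesis at 0.22. Slc16a3, a lactate exporter, was the glycolysis gene past 2-fold lower at -2.49 (-4.39 to -1.08), with 42.5% of its water UMIs in 1 cell, and Hk1, hexokinase, was past 2-fold higher at 1.02 (-0.12 to 2.09).

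Odc1, the target of DFMO, had 22 UMIs in 8 of 14 DFMO cells and 125 UMIs in 42 of 64 water cells. This was 130 CPM in DFMO and 190 CPM in water, at -0.55 (-1.27 to 0.11), an interval that included 0. After a random thinning to 2000 UMIs per cell, which leaves fewer Odc1 UMIs, the ratio was 0.69, for which no interval was computed. Transcript counts do not measure the enzyme's activity. Of the other polyamine genes, Azin1, an antizyme inhibitor that protects ornithine decarboxylase from breakdown, was past 2-fold higher with 171 CPM in DFMO and 82.1 CPM in water, at 1.06 (0.36 to 1.74). Sat1, which acetylates polyamines for export, was at -0.84 (-1.62 to -0.14). Oaz1, the antizyme, was at 0.07, Eif5a, the protein that carries hypusine made from spermidine, at 0.12, and the synthase genes Srm and Sms at 0.34 and 0.39, all with intervals that included 0. The 12 measured genes of the list had a median of 0.24, with 9 above 0.

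Urea cycle genes were hardly seen. Of 23 list members, 4 were measured, with a median of 0.28 and none past 2-fold. Arg1, arginase 1, had 0 UMIs in DFMO and 0 UMIs in water cycling cells, and 1 and 18 UMIs in non-cycling cells. Ass1, which makes argininosuccinate, had 0 and 1 UMI.

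By the size of the nearer interval bound, the other genes highest in DFMO cycling cells were Ddb2, a damage recognition factor, at 2.28 (1.09 to 3.51) on 15 and 12 UMIs, Isy1, a splicing factor, at 1.52 (0.76 to 2.26), Gm42031 at 1.07 (0.72 to 1.41) and Crip1, a LIM domain protein, at 1.04 (0.85 to 1.22). Crip1 had 2274 CPM over 14 of 14 DFMO cells and 1109 CPM over 62 of 64 water cells. Spp1, osteopontin, was at 1.12 (0.90 to 1.33), with 82.6% of its DFMO UMIs in 1 cell.

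Several of the lowest genes came with the 6 cells described above. Col3a1 had 0 UMIs in DFMO and 90 in water, Cd34 0 and 85, Serpinh1 0 and 104, Nupr1 0 and 84, Cd63 0 and 157 and Gng11 0 and 206. Without the 6 cells, Cd34, Col3a1 and Serpinh1 had 1 UMI each in water, Cd63 had 5 and Nupr1 had 6, and the bound for Gng11 was -0.50 in place of -4.14. Mt1, a metallothionein, had 2 UMIs in 1 DFMO cell and 299 UMIs in 21 water cells. Its ratio was -5.27 (-8.32 to -3.40), or -3.21 without the 6 cells. After thinning to 2000 UMIs it was at most -1.08, a bound set by the floor of 3 counts.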

How the data were processed

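The deposited matrix holds UMI counts per gene and cell for 10720 cells and 17775 genes, with 0 mitochondrial and 0 ribosomal protein genes, so these were absent from all totals. Per the submitters' processing notes the tools were Cell Ranger 3.02 and Scanpy 1.4.4 with mm10; the cell filters of the authors are not stated. The cell table names the groups DFMO and Control, and Control was taken as water. The members and the gene lists were chosen with earlier results of these data known.

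Counts were summed over cells of a class and library and scaled to CPM. Genes averaging at least 50 CPM over the compared sets were measured. Shares have Clopper-Pearson intervals, ratios exact conditional binomial intervals, and a gene at 0 was entered at a floor of 3 counts over the group. Named genes are those of the lists and the 10 with the highest lower and 10 with the lowest upper interval bound (DFMO over water), and, for cycling over non-cycling, the 10 highest and 10 lowest by the library nearer to 0. Scrublet, run with Scanpy 1.11.5, marked 1.14% of DFMO and 1.55% of water cells; doublets were kept. TMM came from edgeR 4.0.16. The alternatives changed the limit, gate, depth, minimum, fold and scaling. The calculation was tested on simulated data. A few genes that meet these rules are counted in their lists but not reported here by name.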

Additional observations from a re-analysis of the deposited data

Results flagged for a closer look

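The results here went opposite ways in the paired sets of cells, and the difference between the sets was not tested. Ccl4 was lower in DFMO than in water among cycling NK cells, at -3.32 on the log2 scale, and higher among non-cycling NK cells, at 0.46. Mt1 stood at -5.27 (DFMO over water) in cycling and 0.47 in non-cycling NK cells. After thinning to 2000 UMIs the cycling value was a bound, at most -1.08 against the floor of 3 counts. The thinned non-cycling value was -0.09, so both then lay below 0. Without the cells with Col3a1, Cd34, Serpinh1 and Sparc (6 cycling and 5 non-cycling, all water) the values were -3.21 and 1.92. Set as cycling over non-cycling, Mt1 stood at -5.38 in DFMO and 0.36 in water. Without the same 11 cells the water value was -0.24. After thinning the value was at most -0.35 in DFMO, again a bound set by the floor, and 0.63 in water. Spp1, as cycling over non-cycling, stood at 0.22 in DFMO, with 82.6% of its cycling UMIs in 1 cell, and at -0.41 in water.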

How the results depend on the processing

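Of the gene ratios recomputed under the alternatives, 1379 stayed inside their counting interval, 175 left it and 5 that were past 2-fold changed sign. Of the list medians, 1012 stayed within the counting error of the list's sum and 366 did not. The cycling share in water was 17.1% with a limit of 8 and 11.5% after thinning to 2000 UMIs. The S share in DFMO was 29.9% with a limit of 8, 36.9% in the stricter gate, 35.6% with lists free of the rule genes and 37.1% with each cell alike. In water it was 24.0% with a limit of 2, 23.2% in the stricter gate, 23.4% without the cells carrying Col3a1, Cd34, Serpinh1 and Sparc (chosen after seeing the data), 24.98% with lists free of the rule genes and 24.9% with each cell alike.

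Genes past the fold numbered 218 for DFMO over water in cycling cells, and 852 at 20 CPM, 56 at 100 CPM, 1475 with no minimum, 783 at 1.5-fold and 952 thinned. For cycling over non-cycling cells the counts in the same order were 517, 1315, 262, 2081, 1148 and 1119 in DFMO, and 244, 555, 119, 1952, 628 and 459 in water. In the stricter gate, the DFMO over water ratio of non-cycling cells turned to -1.99 for Gzmd, -2.24 for Gzme and -3.18 for Gzmg, and Gzme turned to 0.021 for cycling over non-cycling in DFMO. Without the cells carrying the 4 genes, Gng11 turned to -0.39 for cycling over non-cycling in water. The cause was not tested. No paired analysis was possible because a single library stands for each group. With 14 DFMO cycling cells, depth and single cells limit the values of genes with few UMIs.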
